A study of Caenorhabditis elegans with 8 samples.

Results

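Whole worms carrying both hel-1(gk148684) and daf-2(e1370) were compared with worms carrying hel-1(gk148684) alone, which asks what a weakened insulin receptor does to the transcriptome when the RNA helicase HEL-1 is already mutant. The comparison used 4 of the 8 RNA-seq libraries of the series, chosen by genotype: 2 of the hel-1;daf-2 double mutant (strain IJ1121) and 2 of the hel-1 single mutant (strain IJ501). The other libraries, 2 of daf-2(e1370) (strain CF1041) and 2 of N2, the wild type, served as the matching pair without the hel-1 mutation. All animals were day 1 adults grown at 20 °C after bleach synchronization, and the labels call the libraries of a genotype independent biological repeats. Each genotype is 1 strain, so any other difference between the strains cannot be told apart from the named alleles.

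DAF-2 is the worm's insulin/IGF-1 receptor. Through the kinases AGE-1 and AKT-1 it keeps the FOXO transcription factor DAF-16 out of the nucleus. When the receptor is weakened, DAF-16 enters the nucleus, genes of stress resistance, metal binding, metabolism and defence change their activity, and the worms live long. HEL-1 is a DEAD-box RNA helicase that was identified as a gene daf-2 mutants need for their full life extension.

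The libraries held between 31555368 and 37552513 counts. Within a genotype the 2 libraries correlated at r = 0.998 in hel-1;daf-2, 0.996 in hel-1, 0.986 in daf-2 and 0.995 in N2, across 13024 genes that are not independent replicates. The log2 difference between its libraries had a standard deviation of 0.182 in hel-1;daf-2, 0.222 in hel-1, 0.449 in daf-2 and 0.261 in N2, so the 4 libraries compared here stood closer to their partners than the daf-2 libraries did. Replicate 2 of daf-2 stood apart from replicate 1, and the tests of the daf-2 effect that use it are given with and without it. Markers of every tissue sought were found among the tested genes: 22 of 23 intestine markers, 25 of 26 hypodermis markers, 31 of 31 body wall muscle genes, 14 of 28 pharynx genes, 25 of 30 neuron markers, 69 of 90 sperm genes and 60 of 60 genes of oocytes, meiosis and germ granules. These are whole animals, so fewer cells of a type and less RNA per cell cannot be told apart in any result below.

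The transcript of hel-1 itself had 535 and 526 CPM (the usual depth-scaled count, here on the scale of all 8 libraries) in hel-1;daf-2, 565 and 526 CPM in hel-1, 547 and 468 CPM in daf-2 and 618 and 601 CPM in N2. Its log2 fold change was -0.03 ± 0.05 (standard error, n = 2 libraries per genotype) with an adjusted p of 0.714, and a transcript level does not show the lesion. The daf-2 transcript had 141 and 132 CPM in hel-1;daf-2, 107 and 118 CPM in hel-1, 145 and 139 CPM in daf-2 and 109 and 116 CPM in N2, so both daf-2 strains lay above the others. Its log2 fold change of 0.29 ± 0.06 passed the test (adjusted p = 0.0294), but not without double mutant replicate 1 (0.23, adjusted p = 0.157), without replicate 2 (0.33, adjusted p = 0.0819), with only genes at 5 CPM or more (0.24, adjusted p = 0.0612) or in a fit of all 8 libraries (0.28, adjusted p = 0.092). The daf-16 transcript, with 161 and 145 CPM in hel-1;daf-2, 153 and 168 CPM in hel-1 and all daf-2 and N2 libraries between these bounds, overlapped between the genotypes (log2 fold change -0.06 ± 0.07, adjusted p = 0.548).

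Of 13024 genes tested, 1410 were higher in hel-1;daf-2 than in hel-1 (10.8% of those tested) and 1499 were lower (11.5%), at an adjusted p under 0.05. The counts of the gene lists below are to be read beside these shares. Changes beyond 2-fold were unequal in direction: 265 genes rose that far (2.03%) and 861 fell that far (6.61%). The surplus of large decreases was widest among weakly expressed genes and absent among the most abundant. Among the 2073 genes whose higher genotype averaged under 1 CPM, 49 rose and 239 fell beyond 2-fold, with a median log2 fold change of -0.32. Among the 2815 genes at 1 to 5 CPM, 107 rose and 391 fell beyond 2-fold. Among the 4362 genes at 5 to 50 CPM, 80 rose and 212 fell beyond 2-fold, with a median of 0.06. Among the 3774 genes at 50 CPM and over, 29 rose and 19 fell beyond 2-fold, while 650 rose and 290 fell by any amount and the median was 0.04. By chromosome, decreases beyond 2-fold took from 4.19% of tested genes on chromosome III to 9.84% on chromosome IV, and increases took from 1.26% on X to 3.52% on V.

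The number of calls was smallest when a double mutant library was left out. In those fits the spread came from the hel-1 pair alone, the wider pair of the 2 genotypes. Why the counts fell was not tested. Without double mutant replicate 1, 325 genes were higher and 355 lower, and without replicate 2, 212 were higher and 300 lower. The counts beyond 2-fold were then 168 higher and 269 lower without replicate 1, and 121 higher and 237 lower without replicate 2. Without hel-1 replicate 1, 1353 genes were higher and 1470 lower, and without hel-1 replicate 2, 1579 were higher and 1646 lower. In all, 431 of the 2909 called genes (191 higher, 240 lower) and 305 of the 1126 beyond 2-fold were called in each of the 4 fits that left out 1 library. A fit of all 8 libraries, whose shared spread includes the wider daf-2 pair, called 406 genes higher (2.96% of 13722) and 364 lower (2.65%), of them 171 (1.25%) and 252 (1.84%) beyond 2-fold. Of these higher and lower genes, 402 and 359 were also called in the fit of 4 libraries. Where a gene is described below by its call in the fit of 4 libraries, a call lost in one of these fits is said. For genes described by the difference of the 2 daf-2 effects, such losses are not all listed.

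**Figure D1:**
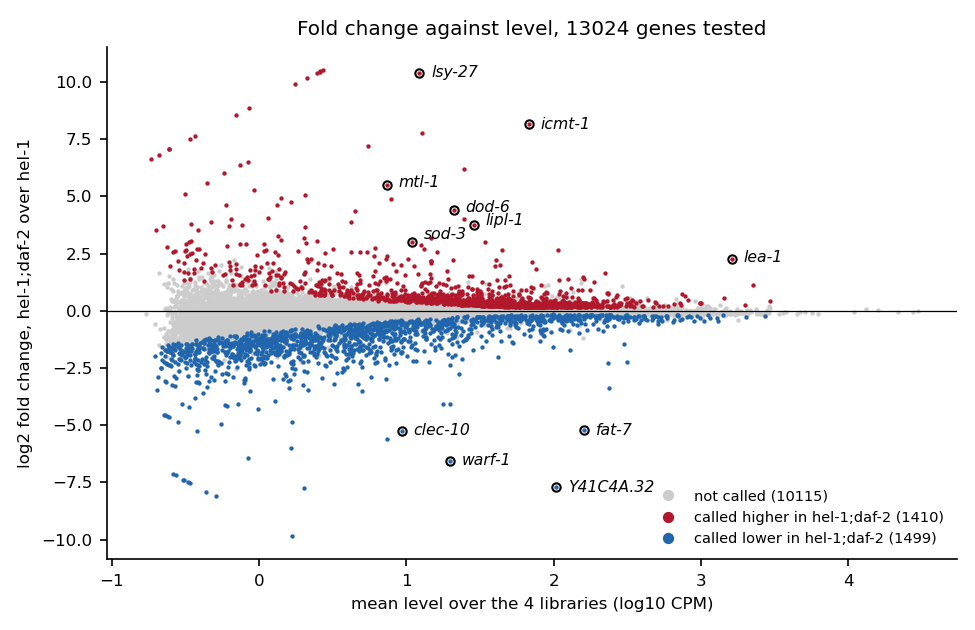
Log2 fold change of hel-1;daf-2 over hel-1 (vertical axis) against the mean level of the 4 libraries (horizontal axis, log10 of CPM), 1 point per tested gene. Red points are the 1410 genes called higher, blue points the 1499 called lower and grey points the rest; the large decreases spread out at the low-level end, and genes without counts in hel-1 sit at the top at fitted values that depend on the prior count.

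The 8 libraries show where the changed genes stood beside daf-2 and N2. These are descriptions without a test, since a called gene already has its 2 genotypes apart. Of the 265 genes over 2-fold higher in hel-1;daf-2, 246 (92.8%) had both daf-2 strains above all 4 libraries without the daf-2 mutation, or 249 when daf-2 replicate 2 was left out. Of the 861 genes over 2-fold lower, 176 (20.4%) had both daf-2 strains below those 4 libraries. That count was 301 (35%) when daf-2 replicate 2 was left out, a change chosen after seeing the data, beside 28.6% of all tested genes in either direction. Among the same 861 genes, hel-1 stood above all 6 other libraries in 239 (27.8%) and hel-1;daf-2 stood below all 6 others in 292 (33.9%). Over all tested genes, in either direction, the shares were 21.6% for both daf-2 strains apart, 10.7% for hel-1 apart and 14.3% for hel-1;daf-2 apart. The strong increases thus lay mostly with the daf-2 mutation in either background, and the strong decreases were spread over several patterns.

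The targets that DAF-16 is known to switch on changed in both directions. The list of DAF-16-activated genes had 44 tested members, of which 15 rose (34.1%) and 10 fell (22.7%), with a median log2 fold change of 0.37 beside 0.00 over all tested genes. Without double mutant replicate 1, 12 rose and 5 fell, and without replicate 2, 9 rose and 3 fell. sod-3, which encodes a manganese superoxide dismutase of mitochondria and is the standard reporter of DAF-16, had 19.5 and 19.3 CPM in hel-1;daf-2, against 2.39 and 2.45 CPM in hel-1. The genotypes were far apart and the repeats close, for a log2 fold change of 3.0 ± 0.11 (adjusted p = 2.43e-04). The metallothionein gene mtl-1 had 9.29 and 19.7 CPM in hel-1;daf-2, against 0.053 and 0.621 CPM in hel-1. Its log2 fold change of 5.49 ± 0.70 (adjusted p = 0.00858) ran from 4.53 without hel-1 replicate 1 to 8.0 without hel-1 replicate 2. dod-6, named as a gene downstream of daf-16, had 35.9 and 44 CPM in hel-1;daf-2 and 1.43 and 2.36 CPM in hel-1 (log2 fold change 4.41 ± 0.22, adjusted p = 7.64e-04).

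Other members of this list, and the catalase gene ctl-3 of the antioxidant list, were higher as well. lea-1, whose product resembles plant proteins of desiccation tolerance, had 2720 and 2640 CPM in hel-1;daf-2, against 393 and 736 CPM in hel-1 (log2 fold change 2.25 ± 0.28, adjusted p = 0.00763). sip-1, a small heat shock protein of the germline, had 3200 and 3050 CPM in hel-1;daf-2, against 1330 and 1480 CPM in hel-1 (1.15 ± 0.07, adjusted p = 0.00149). In both genes the genotypes were well apart, although the hel-1 libraries of lea-1 differed from each other. ctl-3 had 74 and 73.7 CPM in hel-1;daf-2 and 22 and 29.7 CPM in hel-1 (1.52 ± 0.13). asm-2, an acid sphingomyelinase, rose by 1.43 ± 0.11, and ftn-1, a ferritin heavy chain, by 5.06 ± 0.70, with a range of 4.27 to 6.13 over the fits without 1 library (4.38 without hel-1 replicate 1, 6.13 without hel-1 replicate 2 and 4.27 without double mutant replicate 1). The rise of lys-7, a lysozyme with 103 and 134 CPM in hel-1;daf-2 and 17.2 and 50.2 CPM in hel-1 (1.82 ± 0.45, adjusted p = 0.0387), did not pass without double mutant replicate 1 (1.99, adjusted p = 0.0788), without replicate 2 (1.61, adjusted p = 0.129), with DESeq2 (0.0735), with only genes at 5 CPM or more (0.0641) or in the fit of 8 libraries (0.136). It moved between 1.24 without hel-1 replicate 1 and 2.78 without hel-1 replicate 2. dod-3 rose by 2.72 ± 0.54 (adjusted p = 0.0226), 2.1 without hel-1 replicate 1, 3.72 without hel-1 replicate 2 and 2.12 with a lost call without double mutant replicate 2 (adjusted p = 0.0822).

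Of the 10 members that fell, 5 were small heat shock genes of the hsp-16 family, inducible chaperones for unfolded proteins. hsp-16.2 had 0.422 and 0.347 CPM in hel-1;daf-2, against 0.902 and 1.46 CPM in hel-1 (log2 fold change -1.59 ± 0.37, adjusted p = 0.0333). Its call was lost without double mutant replicate 1 (adjusted p = 0.111), without replicate 2 (0.152), without hel-1 replicate 2 (0.0682), with DESeq2 (0.0793) and with all 8 libraries (0.248). hsp-16.41, outside the naming rule and chosen after its values were seen, stood at -1.64 ± 0.43 (adjusted p = 0.0452), and its call was lost without double mutant replicate 1 (0.185), without replicate 2 (0.0992), without hel-1 replicate 1 (0.122), with DESeq2 (0.0975), with the replicate number as a block (0.0602) and with all 8 libraries (0.302). The family has near-identical copies and counts here are low, so their levels are uncertain. hsp-12.6, a small heat shock gene that is also in both lists, had 0.392 and 0.284 CPM in hel-1;daf-2 and 0.186 and 0.404 CPM in hel-1 and did not pass (0.23 ± 0.48, adjusted p = 0.75). fat-5, a delta-9 desaturase acting on palmitate, is also listed as activated. It had 67.5 and 55.9 CPM in hel-1;daf-2, against 95.8 and 123 CPM in hel-1 (log2 fold change -0.83 ± 0.14, adjusted p = 0.0155), and its call was lost without double mutant replicate 2 (-0.70, adjusted p = 0.0655). Over the list of small heat shock proteins, 6 of 13 tested members fell and sip-1 rose, with a median of -0.51; 3 fell without either of the double mutant libraries. Outside the hsp-16 family, hsp-17 was the one that fell, at 6.97 and 8.7 CPM in hel-1;daf-2 against 19.1 and 24.1 CPM in hel-1 (-1.46 ± 0.16, adjusted p = 0.00554).

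Genes that DAF-16 is known to keep low were lower where they passed. Of 17 tested DAF-16-repressed genes, 6 fell and none rose by edgeR's test, with a median log2 fold change of -0.37 (9 fell and 1 rose at an unadjusted p under 0.05, 6 and 0 with DESeq2). Without hel-1 replicate 1 there were 10 that fell, and without hel-1 replicate 2 there were 4 that rose and 7 that fell. fat-7, a stearoyl-CoA desaturase at V:7151353-7153146 (WBcel235, minus strand), had 11.9 and 4.83 CPM in hel-1;daf-2, against 308 and 317 CPM in hel-1. Its log2 fold change of -5.21 ± 0.35 (adjusted p = 0.00173) was the deepest of the list and became -6.02 without double mutant replicate 1. dod-22, a CUB-domain gene of the pathogen response, had 0.0603 and 0.158 CPM in hel-1;daf-2, against 3.32 and 3.20 CPM in hel-1 (-4.87 ± 0.37, and -5.68 without double mutant replicate 2). The genes dod-24 and dod-23, likewise named as downstream of daf-16, also fell, by 2.78 ± 0.60 and 1.39 ± 0.18. The dod-24 value ran from -4.49 without double mutant replicate 2 to -2.01 without replicate 1, and its call was lost in the fit of 8 libraries (adjusted p = 0.0619) and with DESeq2 (adjusted p = 0.0602).

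**Figure D2:**
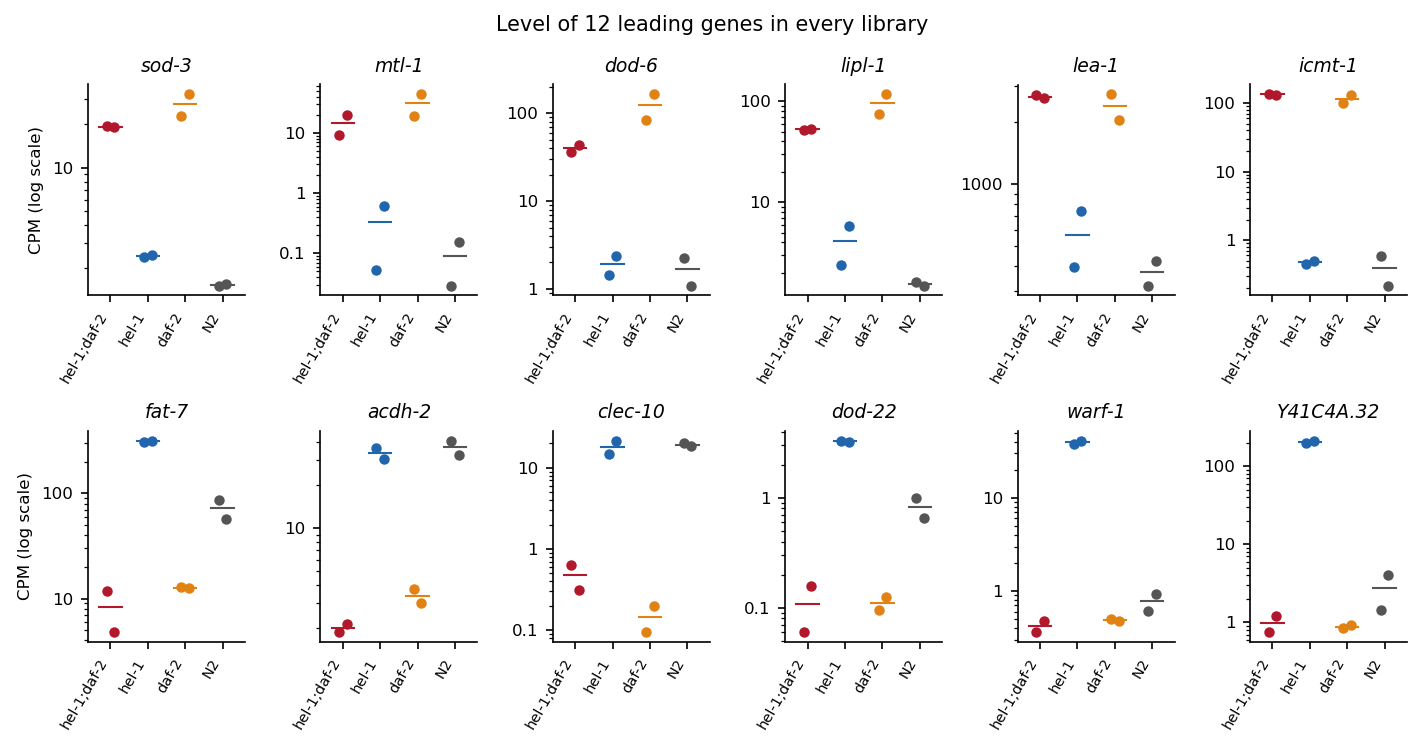
CPM (log axes, each panel with its own range) of 12 genes in each of the 8 libraries: points are libraries and bars the mean of a genotype, in the order hel-1;daf-2, hel-1, daf-2, N2. The 6 genes of the top row are higher in both daf-2 strains, 4 genes of the bottom row are lower in both daf-2 strains, and warf-1 and Y41C4A.32 are high in the hel-1 libraries alone.

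The insulin pathway's own transcripts moved mostly by small amounts. Of 33 tested members of the insulin/IGF-1 pathway, 11 rose (33.3%, beside 10.8% of all tested genes) and 4 fell (12.1%, beside 11.5%). Of the 4, 1 fell by more than 2-fold. Members ranged from -1.54 to 0.70, with a median of 0.02. With either double mutant library left out, 1 member passed, and it rose. rict-1, the TORC2 subunit Rictor, passed in every fit without 1 library, at 128 and 133 CPM in hel-1;daf-2 and 96.2 and 98.0 CPM in hel-1 (log2 fold change 0.43 ± 0.05, adjusted p = 0.00491). age-1, the phosphoinositide 3-kinase, stood at 0.26 ± 0.04, and akt-1, its downstream kinase, at 0.23 ± 0.04. Both passed in the main comparison (adjusted p = 0.0131 and 0.0193) and neither passed without double mutant replicate 1 (adjusted p = 0.0787 and 0.127), without replicate 2 (0.0893 and 0.109) or with all 8 libraries (0.164 and 0.159). Among 14 tested insulin-like peptide genes, the receptor's candidate ligands, 5 rose and 1 fell, with 3 rising without double mutant replicate 2. ins-10 had 1.63 and 2.02 CPM in hel-1;daf-2, against 0.053 and 0.0311 CPM in hel-1 (5.29 ± 0.43, adjusted p = 0.00246). ins-23 rose by 3.70 ± 0.40 from comparably low levels, and ins-35 by 2.68 ± 0.40, which did not pass with all 8 libraries (adjusted p = 0.0572).

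A small set of genes was close to absent in hel-1 and plainly expressed in hel-1;daf-2. Among genes averaging at least 5 CPM in hel-1;daf-2 and with counts in both hel-1 libraries, the largest increase was in icmt-1, the carboxyl methyltransferase that finishes prenylated proteins: 136 and 134 CPM in hel-1;daf-2, against 0.451 and 0.497 CPM in hel-1 (log2 fold change 8.15 ± 0.07, adjusted p = 7.37e-07). Its annotated neighbor unc-38, a nicotinic acetylcholine receptor subunit of muscle, had 49.8 and 48.1 CPM in hel-1;daf-2, against 0.531 and 0.808 CPM in hel-1 (6.21 ± 0.15, adjusted p = 4.01e-05), and it shares 22 exon bases with a gene on the other strand. Both genes had the same 2-level pattern without the hel-1 mutation: on the scale of all 8 libraries, icmt-1 stood at 102 and 132 CPM in daf-2 and 0.581 and 0.217 CPM in N2, and unc-38 at 39.9 and 50.7 CPM in daf-2 and 0.523 and 0.466 CPM in N2. R05H10.7 (7.75 ± 0.53) and H39E23.3 (7.18 ± 0.55) had increases of this size, and F15B9.6 (4.87 ± 0.23) and F17B5.1 (4.34 ± 0.49) had smaller ones. All of them stayed at 3.52 or more in every fit without 1 library. R05H10.7 was 8.59 without hel-1 replicate 1, and F17B5.1 was 3.52 without hel-1 replicate 1 and 5.97 without hel-1 replicate 2.

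Another group of these genes were neighbors on the right arm of chromosome V. fbxa-189 (V:17345214-17347781), lsy-27 (V:17348665-17350193), Y20C6A.1 (V:17371514-17376745), fbxb-7 (V:17377406-17379233) and C18D4.6 (V:17535586-17538375) had counts in the daf-2 strains and practically none in the others. lsy-27, a zinc finger gene, had 25.3 and 23.7 CPM in hel-1;daf-2, against 0.0265 and 0 CPM in hel-1, where its 1 count gives a ratio of 1710 (95% counting interval 307 to 67700). C18D4.6 had 5.76 and 5.08 CPM, Y20C6A.1 5.22 and 5.2 CPM, fbxb-7 4.40 and 5.93 CPM, and fbxa-189 3.53 and 3.53 CPM in hel-1;daf-2, and none of the 4 had a count in hel-1. Against a floor of 3 counts per library they were at least 62.7-fold, 60.3-fold, 59.8-fold and 40.9-fold higher in hel-1;daf-2, in that order. The stretch of 193 kb they span, picked after these values were seen, holds 72 annotated genes, of which 7 were tested and all 7 were higher. These 7 entered the test through the double mutant libraries, so they had to differ; on the rest of chromosome V, 271 of 2409 tested genes were higher (11.2%). On the scale of all 8 libraries, lsy-27 had 23 and 21.1 CPM in daf-2 and 0.0291 and 0 CPM in N2. In all, 14 called genes had no counts in hel-1, none of them had any in N2, and 11 of them lay on chromosome V. Of those 11, 6 belong to the stretch above. Chromosome V holds 2416 of the 13024 tested genes. All 14 passed the filter only through the double mutant libraries, so their direction was fixed in advance.

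At the other end, among genes averaging at least 5 CPM in hel-1, the 2 largest decreases were in genes that only the hel-1 libraries expressed well. Y41C4A.32 (III:11721706-11723607) had 0.754 and 1.23 CPM in hel-1;daf-2, against 201 and 214 CPM in hel-1 (log2 fold change -7.71 ± 0.14, adjusted p = 1.96e-05). warf-1 (IV:7634786-7635712), which overlaps a gene on the other strand by 60 exon bases and encodes an ARF-family small GTPase, had 0.362 and 0.473 CPM in hel-1;daf-2, against 37.8 and 41 CPM in hel-1 (-6.55 ± 0.14, adjusted p = 3.04e-05). Levels in daf-2 and N2 were also far below those of hel-1, though highest in N2 among the remaining genotypes: on the scale of all 8 libraries, warf-1 had 0.504 and 0.474 CPM in daf-2 and 0.610 and 0.931 CPM in N2, and Y41C4A.32 had 0.851 and 0.922 CPM in daf-2 and 1.45 and 4.01 CPM in N2. B0205.13 was likewise high in hel-1 alone, at 0.241 and 0.347 CPM in hel-1;daf-2 against 14.2 and 14.7 CPM in hel-1 (-5.60 ± 0.19), with 0.756 and 1.27 CPM in N2 on the scale of all 8 libraries. In daf-2 over N2, Y41C4A.32 (-1.6, adjusted p = 0.0475) and B0205.13 (-2.09, adjusted p = 0.0114) were lower too. In contrast, clec-10, a C-type lectin gene, had 0.634 and 0.315 CPM in hel-1;daf-2 and 14.8 and 21.6 CPM in hel-1 (-5.24 ± 0.33, and -5.84 without double mutant replicate 1), with 0.0946 and 0.199 CPM in daf-2 and 20.3 and 18.5 CPM in N2. Here the 2 daf-2 strains were both low and the groups did not overlap. aakg-4, a regulatory subunit of AMP-activated kinase, stood at -3.19 ± 0.32 (-3.88 without double mutant replicate 2), and C09B8.4 at -2.96 ± 0.18. Another 9 called genes, with mean levels between 0.523 and 3.37 CPM in hel-1, had no counts in hel-1;daf-2, and 8 of the 9 had none in daf-2. These 9 passed the filter only through the hel-1 libraries, so their direction was fixed in advance.

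Fatty acid synthesis moved down as a group of modest changes around the large fall of fat-7. Of 31 tested genes of fatty acid synthesis and desaturation, 11 fell and 1 rose, with a median of -0.34. The count of decreases was 4 without double mutant replicate 1, 2 without replicate 2 and 20 without hel-1 replicate 1. pmt-2, a methyltransferase on the path to phosphatidylcholine, had 421 and 400 CPM in hel-1;daf-2, against 594 and 625 CPM in hel-1 (log2 fold change -0.57 ± 0.05, adjusted p = 0.00378). ckb-2, a choline kinase of the same pathway, had 8.90 and 8.74 CPM in hel-1;daf-2 and 32 and 35.8 CPM in hel-1 (-1.94 ± 0.09, adjusted p = 7.48e-04). Both held in every fit without 1 library and their groups did not overlap. fasn-1, fatty acid synthase, with 111 and 114 CPM in hel-1;daf-2 and 194 and 156 CPM in hel-1 (-0.64 ± 0.10), lost its call without double mutant replicate 1 (adjusted p = 0.0552) and without replicate 2 (0.0547). pod-2, acetyl-CoA carboxylase (-0.39 ± 0.09), lost its call without double mutant replicate 1 (0.0608), without replicate 2 (0.155) and with all 8 libraries (0.12). The desaturase fat-6, close in sequence to fat-7, had 336 and 288 CPM in hel-1;daf-2 and 358 and 443 CPM in hel-1 and did not pass (-0.36 ± 0.12, adjusted p = 0.08). It did with DESeq2 (adjusted p = 0.0175), with no filter (0.0347) and without hel-1 replicate 1 (0.0135).

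Fat breakdown changed in both directions: 5 of 52 tested genes rose (9.62%) and 12 fell (23.1%), with a median of -0.13. Over all tested genes the shares were 10.8% and 11.5%. There were 3 higher and 6 lower without double mutant replicate 1, 2 higher and 6 lower without replicate 2, 23 lower without hel-1 replicate 1 and 14 higher without hel-1 replicate 2. lipl-1, a lysosomal lipase, had 52.7 and 54 CPM in hel-1;daf-2, against 2.36 and 5.81 CPM in hel-1 (log2 fold change 3.73 ± 0.33, adjusted p = 0.00337, and 4.5 without hel-1 replicate 2). The acyl-CoA dehydrogenase gene acdh-2 went the other way, at 1.87 and 2.14 CPM in hel-1;daf-2 and 36.7 and 30.4 CPM in hel-1 (-4.06 ± 0.15, adjusted p = 2.43e-04). Peroxisomal acyl-CoA oxidases were split, acox-1.4 rising by 1.28 ± 0.06 and acox-1.2 falling by 1.29 ± 0.13. Other members of the list that fell were acs-2, an acyl-CoA synthetase, by 1.73 ± 0.21 (adjusted p = 0.16 with all 8 libraries), cpt-6, a carnitine palmitoyltransferase, by 1.38 ± 0.15, and acdh-9, an acyl-CoA dehydrogenase, by 0.64 ± 0.05. Of 7 tested genes of yolk, 6 vitellogenins and the yolk receptor rme-2, none passed by edgeR's test (0 at an unadjusted p under 0.05, 0 with DESeq2), but 1 rose and 2 fell without hel-1 replicate 1 and 2 rose without hel-1 replicate 2. vit-2, a yolk protein gene with near-identical relatives, had 28500 and 25400 CPM in hel-1;daf-2 against 24300 and 31200 CPM in hel-1 (-0.04 ± 0.14).

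Sugar metabolism showed single genes rather than a shared direction. pck-1, a phosphoenolpyruvate carboxykinase of gluconeogenesis, had 55.6 and 59.4 CPM in hel-1;daf-2 and 25.5 and 30.1 CPM in hel-1 (log2 fold change 1.05 ± 0.09, adjusted p = 0.00285, but 0.0771 with all 8 libraries). pygl-1, glycogen phosphorylase, had 1750 and 1700 CPM in hel-1;daf-2 and 1170 and 1140 CPM in hel-1 (0.58 ± 0.05, adjusted p = 0.0032). pyk-1, pyruvate kinase, rose by 0.48 ± 0.04, and aco-1, the cytosolic aconitase, fell by 0.46 ± 0.05. Over 29 tested genes of gluconeogenesis, the glyoxylate cycle and trehalose, 5 rose and 3 fell (1 and 0 without double mutant replicate 1, 2 and 0 without replicate 2, 10 and 1 without hel-1 replicate 2), with a median of -0.03. Over 30 genes of glycolysis and the tricarboxylic acid cycle, 3 rose and 1 fell, with a median of 0.01 (1 and 1 without double mutant replicate 1, 3 and 5 without hel-1 replicate 2). icl-1, the bifunctional glyoxylate enzyme, had 157 and 171 CPM in hel-1;daf-2 and 103 and 150 CPM in hel-1 and did not pass (0.37 ± 0.17, adjusted p = 0.152), though it did without hel-1 replicate 2 (0.67, adjusted p = 0.00165) and with the replicate number as a block (0.40, adjusted p = 0.044).

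Detoxification genes leaned upwards. Of 34 tested glutathione S-transferase genes, whose products conjugate glutathione to reactive compounds, 14 rose and 1 fell, 9 of the 14 by more than 2-fold, with a median of 0.44. Without double mutant replicate 2, 5 rose, and without hel-1 replicate 1, 9 rose. gst-39 had 9.41 and 11.3 CPM in hel-1;daf-2, against 3.66 and 4.01 CPM in hel-1 (log2 fold change 1.43 ± 0.15, adjusted p = 0.00479). gst-29 rose by 3.29 ± 0.46 from low levels (2.58 without hel-1 replicate 1, 4.47 without hel-1 replicate 2), gst-20 by 2.1 ± 0.28 and gst-13 by 1.17 ± 0.22. With all 8 libraries the calls of gst-20 (adjusted p = 0.0566), gst-13 (0.0595) and gst-7 (0.42 ± 0.05, then 0.0635) were lost. gst-4, the usual reporter of the oxidative stress factor SKN-1, had 15.6 and 42.5 CPM in hel-1;daf-2, against 9.58 and 7.52 CPM in hel-1. Its groups did not overlap, but double mutant replicate 2 carried most of the difference, and its call (1.76 ± 0.46, adjusted p = 0.0436) was lost without that library (0.86, adjusted p = 0.0651), without hel-1 replicate 1 (0.0613), without hel-1 replicate 2 (0.0827), with DESeq2 (0.0612), at 5 CPM or more (0.0697) and with all 8 libraries (0.13). Of 19 tested SKN-1 targets, 8 rose and none fell by edgeR's test (9 and 0 at an unadjusted p under 0.05, 6 and 0 with DESeq2), most of them glutathione S-transferases (2 rose without double mutant replicate 2 and 5 without hel-1 replicate 2). With all 8 libraries no SKN-1 target was called, and among 36 glutathione S-transferases 2 were higher and 1 lower.

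The other families of this kind were less one-sided. Of 50 tested cytochrome P450 genes, 8 rose and 2 fell (2 and 1 without double mutant replicate 2, 5 and 1 without replicate 1, 6 and 4 without hel-1 replicate 1, 13 and 2 without hel-1 replicate 2), with a median of 0.18. cyp-34A8 rose by 1.08 ± 0.11 (adjusted p = 0.0718 with all 8 libraries) and cyp-33C8 fell by 1.60 ± 0.16. Of 53 tested UDP-glucuronosyltransferase genes, 3 rose (5.66%) and 7 fell (13.2%, near the 11.5% of all tested genes). Their median was -0.15, and between -0.20 and 0.04 over the fits without 1 library. ugt-44 had 51 and 67.1 CPM in hel-1;daf-2 and 19 and 27.4 CPM in hel-1 (log2 fold change 1.35 ± 0.20), and ugt-62 had 41.4 and 46.7 CPM in hel-1;daf-2 and 82.4 and 108 CPM in hel-1 (-1.11 ± 0.13). Of 20 tested genes of metal response, 5 rose and 3 fell, 1 of them lower in each fit without 1 library. cdr-4, a cadmium-responsive gene, was that 1, with 7.33 and 10.5 CPM in hel-1;daf-2 and 37.2 and 39.8 CPM in hel-1 (-2.11 ± 0.16), opposite to mtl-1 and ftn-1. Among 25 antioxidant genes 6 rose and 2 fell (3 and 0 without double mutant replicate 1, 2 and 0 without replicate 2). gcs-1, which makes the precursor of glutathione, was at 131 and 137 CPM in hel-1;daf-2 and 116 and 117 CPM in hel-1 (0.20 ± 0.05, adjusted p = 0.0303). It did not pass without double mutant replicate 1 (0.0991), without replicate 2 (0.195), at 5 CPM or more (0.0553) or with all 8 libraries (0.128).

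Among defence genes, the calls in the lists of pathogen response genes and C-type lectins were mostly downwards. Of 25 tested pathogen response genes, 9 fell and none rose by edgeR's test, 7 of them by more than 2-fold, with a median of -0.14 (10 fell and 2 rose at an unadjusted p under 0.05, 6 and 0 with DESeq2, 4 fell and 2 rose without double mutant replicate 1). irg-7, an infection response gene, had 162 and 165 CPM in hel-1;daf-2, against 398 and 484 CPM in hel-1 (log2 fold change -1.43 ± 0.09, adjusted p = 0.0017), and irg-5 had 0.332 and 1.29 CPM in hel-1;daf-2 against 10.1 and 8.32 CPM in hel-1 (-3.51 ± 0.45, -4.79 without double mutant replicate 2 and -2.84 without replicate 1). Both pairs were far apart. C-type lectin genes have products that include secreted pathogen-binding proteins. Their summed level was higher in the double mutant, at 3231 and 3658 CPM against 2455 and 2848 CPM in hel-1. Of 91 tested members, 13 rose (14.3%) and 27 fell (29.7%), with a median of -0.20 (0.17 with only genes at 5 CPM or more). These were 8 and 10 without double mutant replicate 1, 5 and 8 without replicate 2, and 23 and 21 without hel-1 replicate 2. clec-47 had 2.26 and 2.14 CPM in hel-1;daf-2 and 30.5 and 44 CPM in hel-1 (-4.08 ± 0.22), whereas clec-52 had 25.1 and 30 CPM in hel-1;daf-2 and 4.43 and 4.78 CPM in hel-1 (2.58 ± 0.12) and clec-85 rose by 2.22 ± 0.29.

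Digestive and lytic enzymes changed in both directions. The median was -0.08 for lysozymes, with 20% higher and 30% lower. It was 0.06 for cathepsin-like proteases, with 13.6% higher and 27.3% lower, and between -0.26 and 0.20 over the fits without 1 library. Over all tested genes the shares were 10.8% and 11.5%. Of 10 tested lysozyme genes, 2 rose and 3 fell. ilys-5, an invertebrate-type lysozyme, had 157 and 63.7 CPM in hel-1;daf-2, against 425 and 609 CPM in hel-1 (log2 fold change -2.23 ± 0.42, adjusted p = 0.0198, and -3.03 without double mutant replicate 1), and lys-5 fell by 3.93 ± 0.36. Both lysozymes that rose, lys-7 among them, lost their calls without double mutant replicate 2, and 1 rose without replicate 1. Of 22 tested cathepsin-like proteases, 3 rose and 6 fell (3 and 4 without double mutant replicate 1, 1 and 3 without replicate 2, 3 and 10 without hel-1 replicate 1, 11 and 6 without hel-1 replicate 2). cpr-5, a cathepsin B-like gut protease, had 101 and 59.5 CPM in hel-1;daf-2 and 306 and 474 CPM in hel-1 (-2.28 ± 0.30). cpr-1, of the same type, had 60.5 and 22 CPM in hel-1;daf-2 and 212 and 650 CPM in hel-1 (-3.38 ± 0.67). It ran from -2.36 without hel-1 replicate 2 through -3.97 without hel-1 replicate 1 to -4.30 without double mutant replicate 1, and lost its call without double mutant replicate 2 (-2.84, adjusted p = 0.075). The general gut genes elt-2, the intestinal GATA factor (11.8 and 10.7 CPM in hel-1;daf-2, 9.71 and 12.5 CPM in hel-1), and vha-6, a proton pump subunit (275 and 278 CPM in hel-1;daf-2, 251 and 291 CPM in hel-1), overlapped between the genotypes (0.02 ± 0.15 and 0.03 ± 0.07).

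Cuticle genes were lower. Collagens, the structural proteins of the cuticle, had 130 tested members, of which 54 fell (37 by more than 2-fold) and 9 rose, with a median log2 fold change of -0.53. The decreases numbered 11 without double mutant replicate 1 and 22 without replicate 2, and the increases 4 and 1. With all 8 libraries, 5 of 133 were lower and 1 higher. Their summed level was 14180 and 14810 CPM in hel-1;daf-2 and 17530 and 15830 CPM in hel-1, so the groups did not overlap in this sum, though the step was small. col-34 had 1.78 and 1.73 CPM in hel-1;daf-2, against 9.07 and 7.17 CPM in hel-1 (-2.21 ± 0.19, adjusted p = 0.00288). The abundant col-179 had 121 and 122 CPM in hel-1;daf-2 and 234 and 199 CPM in hel-1 (-0.84 ± 0.08, adjusted p = 0.00417, but 0.152 with all 8 libraries). The adult collagen gene col-19 had 631 and 626 CPM in hel-1;daf-2 and 831 and 817 CPM in hel-1 (-0.39 ± 0.05). Its adjusted p of 0.00631 became 0.0594 without double mutant replicate 1, 0.0691 without replicate 2 and 0.423 with all 8 libraries. col-142 went up, at 202 and 204 CPM in hel-1;daf-2 and 121 and 93.1 CPM in hel-1 (0.92 ± 0.12, 0.161 with all 8 libraries).

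Genes of molting and of the epidermis showed the same sign. Weakly expressed genes in general did as well, with medians of -0.32 under 1 CPM and -0.20 at 1 to 5 CPM. Of 41 tested molting and cuticle turnover genes, 13 fell and none rose by edgeR's test, with a median of -0.56 (18 fell and 1 rose at an unadjusted p under 0.05, 9 and 0 with DESeq2). The decreases numbered 3 without double mutant replicate 1 and 2 without replicate 2. fbn-1, a fibrillin-like matrix protein, had 2.41 and 2.33 CPM in hel-1;daf-2 and 6.66 and 6.34 CPM in hel-1 (log2 fold change -1.45 ± 0.15), and lrp-1, an endocytic receptor of the epidermis, had 18.3 and 16.7 CPM in hel-1;daf-2 and 30.4 and 29.2 CPM in hel-1 (-0.77 ± 0.08, adjusted p = 0.128 with all 8 libraries). The groups of both were apart. nhr-23, a molting regulator (0.03 ± 0.04), and nas-37, a protease that opens the old cuticle (0.08 ± 0.12), did not pass. Of 25 tested hypodermis markers, several of them collagens, 8 fell and none rose by edgeR's test (12 and 0 at an unadjusted p under 0.05, 7 and 0 with DESeq2, and 1 without double mutant replicate 1, 4 without replicate 2), and their summed level was 1348 and 1328 CPM in hel-1;daf-2 and 1590 and 1582 CPM in hel-1. Of 16 epidermal antimicrobial peptide genes, 4 fell and 1 rose (2 and 1 without double mutant replicate 1, 2 and 0 without replicate 2), nlp-31 by 1.53 ± 0.19 and nlp-33 by 1.81 ± 0.18, the second with an adjusted p of 0.0734 in the fit of 8 libraries.

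Transcripts of neurons and of their peptides were mostly lower in the double mutant where they passed. Weakly expressed genes in general leaned the same way, and these lists are to be read beside them. Of the 2815 genes at 1 to 5 CPM, 144 rose and 449 fell, with a median of -0.20. Of the 2073 genes under 1 CPM, 49 rose and 239 fell, with a median of -0.32. Of 47 tested neuropeptide-like protein genes, 14 fell, 12 of them by more than 2-fold, and none rose by edgeR's test, with a median of -0.70 (22 fell and 1 rose at an unadjusted p under 0.05, 11 and 0 with DESeq2). The decreases numbered 7 without double mutant replicate 1 and 6 without replicate 2. nlp-20 had 2.65 and 2.27 CPM in hel-1;daf-2, against 12.9 and 12.9 CPM in hel-1 (log2 fold change -2.38 ± 0.13, adjusted p = 0.00113). nlp-12, a cholecystokinin-like peptide gene, had 1.3 and 1.04 CPM in hel-1;daf-2 and 4.83 and 4.47 CPM in hel-1 (-1.99 ± 0.20). The groups of both genes stood far apart and their repeats close. Of 30 tested FMRFamide-like peptide genes, 6 fell and 2 rose, with a median of -0.48 (3 and 0 without double mutant replicate 1, 2 and 0 without replicate 2), flp-15 by 2.30 ± 0.30 at levels of 0.694 and 0.410 CPM in hel-1;daf-2 and 2.94 and 2.52 CPM in hel-1.

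Of 25 tested neuron markers, 13 fell and none rose by edgeR's test, with a median of -0.61 (15 and 0 at an unadjusted p under 0.05, 9 and 0 with DESeq2). The decreases numbered 6 without double mutant replicate 1 and 7 without replicate 2. Their summed level was 240.4 and 240.5 CPM in hel-1;daf-2 and 307.1 and 306.7 CPM in hel-1, with no overlap. Touch receptor neuron genes were among the deepest: mec-17, an alpha-tubulin acetyltransferase, had 2.08 and 1.67 CPM in hel-1;daf-2 and 6.71 and 6.90 CPM in hel-1 (log2 fold change -1.85 ± 0.18, adjusted p = 0.004), and mec-7, a beta-tubulin, fell by 1.91 ± 0.23. unc-104, the kinesin that carries synaptic vesicle precursors, had 4.25 and 4.48 CPM in hel-1;daf-2 and 9.87 and 9.69 CPM in hel-1 (-1.16 ± 0.12). The dense core vesicle genes ida-1 (-1.17 ± 0.11) and egl-3, a peptide-processing convertase (-0.90 ± 0.10), fell too, but not with all 8 libraries (adjusted p = 0.118 and 0.292). Other neuron markers did not pass: snb-1, synaptobrevin, had 100 and 105 CPM in hel-1;daf-2 and 105 and 106 CPM in hel-1 (-0.04 ± 0.05), unc-13 stood at 0.01 ± 0.16 and unc-119 at 0.19 ± 0.14. Whether the decreases of neuron, cuticle and sperm genes share a source was not tested.

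Muscle and pharynx genes moved little by comparison. Of 31 tested body wall muscle genes, 2 rose (6.45%) and 4 fell (12.9%, near the 11.5% of all tested genes), and 1 of the 2 that rose was unc-38. Their median was -0.05, and between -0.09 and -0.02 over the fits without 1 library. tnt-3, a troponin T, had 15.1 and 15.9 CPM in hel-1;daf-2 and 31.5 and 32.1 CPM in hel-1 (log2 fold change -1.04 ± 0.07, adjusted p = 0.00173, but 0.0899 with all 8 libraries). The myosin heavy chains were split, unc-54 at -0.32 ± 0.06 and myo-3 at 0.30 ± 0.05. Both calls (adjusted p = 0.016 and 0.0157) were lost without double mutant replicate 1 (0.0924 and 0.101), without replicate 2 (0.0883 and 0.0895) and with all 8 libraries (0.689 and 0.657). None of 14 tested pharynx genes passed edgeR's test, with a median of -0.16 (3 lower at an unadjusted p under 0.05, 0 with DESeq2, and 4 lower with a median of -0.36 without hel-1 replicate 1). Of 22 intestine markers 2 rose and 4 fell (0 and 2 without double mutant replicate 1, 1 and 2 without replicate 2, 1 and 10 without hel-1 replicate 1); pho-1, an intestinal acid phosphatase, had 41.7 and 42.5 CPM in hel-1;daf-2 and 68.2 and 75.7 CPM in hel-1 (-0.77 ± 0.06).

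**Figure D3:**
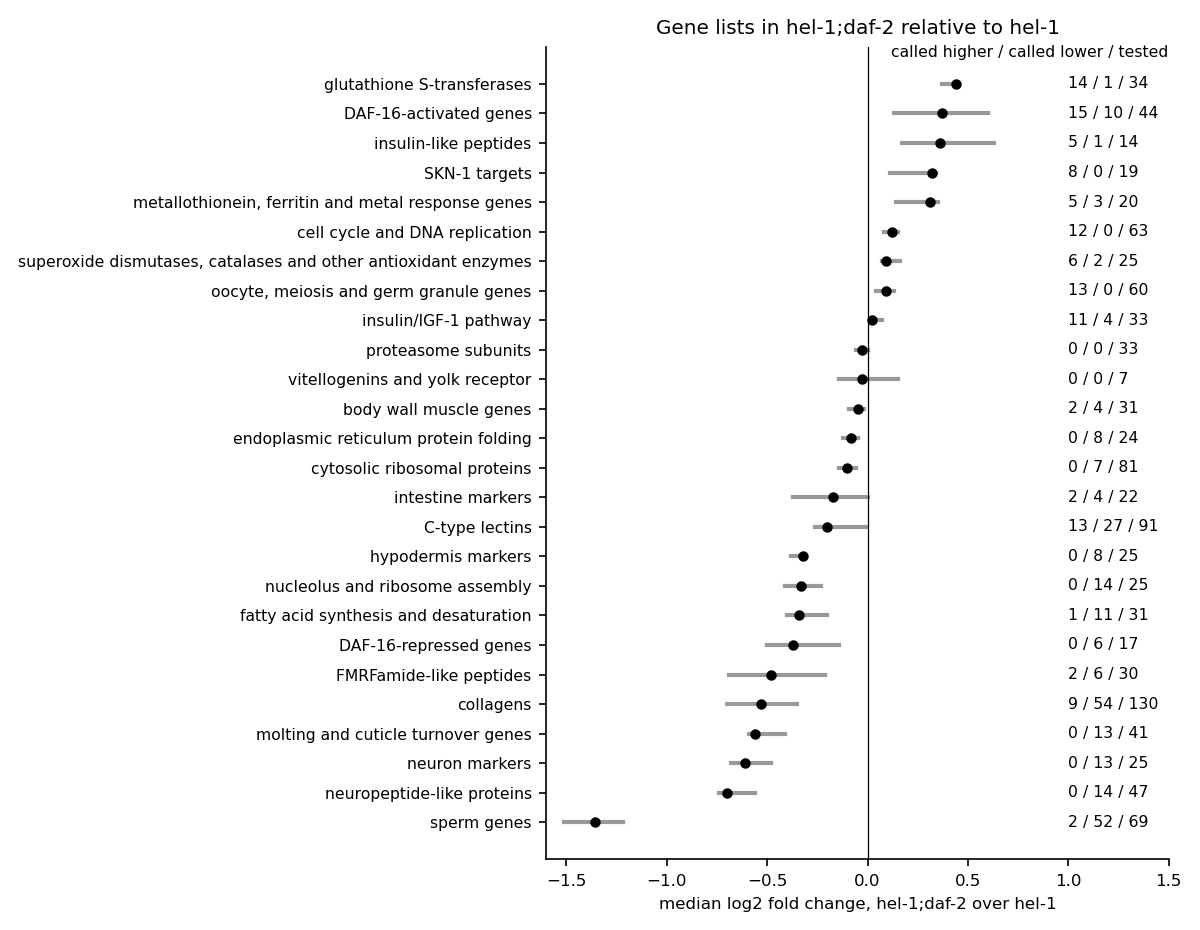
Median log2 fold change of hel-1;daf-2 over hel-1 (horizontal axis) for 26 gene lists ordered by median, with a bar for the lowest and highest median over the 4 fits without 1 library; numbers at the right are members called higher, members called lower and members tested. Sperm genes (-1.36), neuropeptide-like proteins (-0.70) and neuron markers (-0.61) lie at the low end, glutathione S-transferases (0.44) and DAF-16-activated genes (0.37) at the high end, and all tested genes have a median of 0.00.

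With all 8 libraries in the fit, fewer members of these lists were called, as of all genes (2.96% higher and 2.65% lower). Of DAF-16-activated genes 10 were then higher and 3 lower, and of DAF-16-repressed genes 5 were lower. Among defence and lipid genes, 5 of fatty acid synthesis, 6 of the pathogen response and 9 C-type lectins were lower. Among genes of the surface and of neurons, 3 molting genes, 1 hypodermis marker, 4 neuropeptide-like protein genes, 3 FMRFamide-like peptide genes and 5 neuron markers were lower. In the germline and ribosome lists, 4 oocyte genes were higher, and no gene of the cell cycle or of ribosome assembly was called.

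Sperm genes had the largest share of decreases of the 55 lists. Of 69 tested sperm genes, 52 fell, 51 of them by more than 2-fold, and 2 rose, with a median log2 fold change of -1.36. The decreases numbered 34 without double mutant replicate 1 and 25 without replicate 2, and the medians of the fits without 1 library lay between -1.51 and -1.22. msp-81, a major sperm protein gene, had 2.53 and 2.87 CPM in hel-1;daf-2, against 9.66 and 9.94 CPM in hel-1 (-1.86 ± 0.14, adjusted p = 0.00223). msp-152 fell by 1.79 ± 0.14, msp-59 by 1.49 ± 0.13 and msp-64 by 2.59 ± 0.30. gsp-3, a sperm protein phosphatase, fell by 1.59 ± 0.22, without a call when double mutant replicate 1 was left out (-1.44, adjusted p = 0.058). Major sperm protein genes are near-identical copies, so the split of counts among them is uncertain.

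The summed level of the sperm list shows how the genotypes compare. It was 325.2 and 319.2 CPM in hel-1;daf-2 and 567.6 and 497.4 CPM in hel-1, with no overlap, whereas daf-2 had 329.7 and 636.4 CPM and N2 had 656.4 and 302.8 CPM. The libraries of daf-2, and those of N2, thus lay farther apart in this sum than hel-1;daf-2 and hel-1 did. Over the tested sperm genes, the median log2 difference of replicate 2 minus replicate 1 was 0.00 in hel-1;daf-2, 1.43 in daf-2 and -1.66 in N2. With all 8 libraries fitted together, so that the spread includes these pairs, none of the named msp genes passed (adjusted p = 0.161 for msp-81, 0.209 for msp-152, 0.212 for msp-59 and 0.126 for msp-64), nor did gsp-3 (0.201), and of the list 1 gene was called higher and none lower (2 and 21 at an unadjusted p under 0.05).

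**Figure D4:**
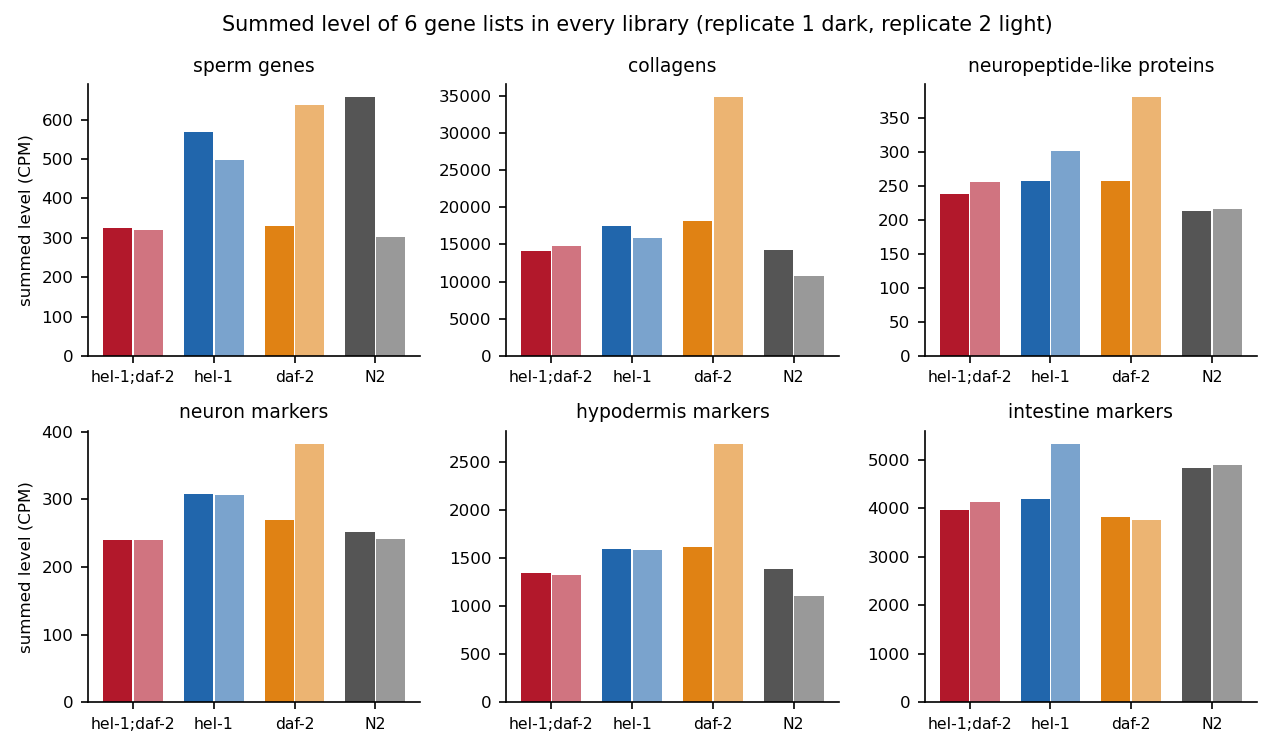
Summed CPM of the members of 6 gene lists in each of the 8 libraries (vertical axes start at 0), in the order hel-1;daf-2, hel-1, daf-2, N2, with replicate 1 dark and replicate 2 light. Sperm genes sum to 325.2 and 319.2 CPM in hel-1;daf-2 and 567.6 and 497.4 CPM in hel-1. The 2 libraries of daf-2, and the 2 of N2, differ from each other by more.

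The female germline leaned slightly the other way, as did abundant genes in general. Among all 3774 tested genes at 50 CPM and over, 650 rose and 290 fell. Of 60 tested genes of oocytes, meiosis and germ granules, 13 rose (21.7%, beside 10.8% of all tested genes) and none fell by edgeR's test. The 13 rose by less than 2-fold, and the list had a median of 0.09 (22 rose and 2 fell at an unadjusted p under 0.05, 13 and 0 with DESeq2). Of 63 cell cycle and DNA replication genes, 12 rose and none fell, with a median of 0.12 (29 and 0 at an unadjusted p under 0.05, 8 and 0 with DESeq2). Most of these calls were lost without either double mutant library, where the spread came from the hel-1 pair alone. Over the fits without 1 library, the medians lay between 0.04 and 0.13 for oocyte genes and between 0.08 and 0.15 for cell cycle genes. Without hel-1 replicate 1, 23 and 25 rose, and without hel-1 replicate 2, 15 and 10 rose while 5 oocyte genes fell. cpg-3, a chondroitin proteoglycan of the eggshell, was firm, at 942 and 927 CPM in hel-1;daf-2 and 532 and 576 CPM in hel-1 (log2 fold change 0.75 ± 0.06, adjusted p = 0.00225). oma-1, an RNA-binding protein of oocyte maturation, had 432 and 429 CPM in hel-1;daf-2 and 373 and 372 CPM in hel-1 (0.21 ± 0.04, adjusted p = 0.0258). It did not pass without double mutant replicate 1 (0.177), without replicate 2 (0.161) or with all 8 libraries (0.28). glh-1, a germ granule helicase (-0.20 ± 0.09), and cdk-1, the mitotic kinase (0.14 ± 0.05), did not pass in the main comparison. Over the fits without 1 library, glh-1 ran from -0.33 to -0.05 and cdk-1 from 0.09 to 0.18.

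Genes of ribosome assembly were slightly lower. Of 25 tested genes of the nucleolus and ribosome assembly, 14 fell and none rose by edgeR's test, with a median of -0.33 (18 and 0 at an unadjusted p under 0.05, 15 and 0 with DESeq2). No member was called without double mutant replicate 1 or without replicate 2, where the medians were -0.36 and -0.32. nol-56 and fib-1, core proteins of the particles that methylate ribosomal RNA, had 452 and 457 CPM and 578 and 567 CPM in hel-1;daf-2, against 681 and 568 CPM and 805 and 682 CPM in hel-1. Their log2 fold changes of -0.46 ± 0.09 and -0.38 ± 0.08 (adjusted p = 0.0214 and 0.0297) had adjusted p of 0.0844 and 0.143 with all 8 libraries, 0.0899 and 0.11 without double mutant replicate 1 and 0.0915 and 0.136 without replicate 2. Of 81 cytosolic ribosomal protein genes 7 fell (8.64%, a share under the 11.5% of all tested genes), with a median of -0.10 (46 without hel-1 replicate 2, 13 without hel-1 replicate 1 and none without either double mutant library), and eef-1A.1, translation elongation factor 1 alpha, stood at 0.02 ± 0.07 and did not pass. The endoplasmic reticulum list had 8 decreases and no increase by edgeR's test among 24 (9 and 1 at an unadjusted p under 0.05, 7 and 0 with DESeq2), with 3 without double mutant replicate 1 and 2 without replicate 2. It included dnj-7, a co-chaperone of that compartment, with 25.1 and 25.2 CPM in hel-1;daf-2 and 44.4 and 52.2 CPM in hel-1 (-0.94 ± 0.09), and ckb-2, whose enzyme is no folding factor. Of 33 proteasome subunits none passed edgeR's test, with a median of -0.03 (1 higher at an unadjusted p under 0.05, 0 with DESeq2).

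RNA helicase and mRNA export genes, the functional neighborhood of HEL-1, moved little. Of 54 tested members, 3 rose and none fell by edgeR's test, with a median of 0.00 (3 rose and 4 fell at an unadjusted p under 0.05, 3 and 1 with DESeq2). Single omissions moved this (1 rose without either double mutant library, 5 rose without hel-1 replicate 1 and 11 fell without hel-1 replicate 2). thoc-7, a subunit of the THO complex of mRNA export, had 74 and 72.4 CPM in hel-1;daf-2 and 50.2 and 48.4 CPM in hel-1 (log2 fold change 0.57 ± 0.04, adjusted p = 0.00239). Of 59 splicing factors, 1 rose and 1 fell, with a median of 0.01 (6 fell without hel-1 replicate 2, and 0 passed without either double mutant library).

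The daf-2 effect with the hel-1 mutation, hel-1;daf-2 over hel-1, was set against the daf-2 effect without it, daf-2 over N2, with all 8 libraries fitted together. The 2 effects share no library. Across 13722 genes, which are not independent replicates, they correlated at r = 0.446. Of the 406 genes higher and 364 lower with the hel-1 mutation, 262 and 116 were also called in the same direction without it (64.5% and 31.9%). These are 15.8% of the 1658 genes higher (12.1% of those tested) and 11.7% of the 990 lower (7.21%) in daf-2 over N2. Another 30 genes were lower with the hel-1 mutation and higher without it. With daf-2 over N2 taken without daf-2 replicate 2, a change chosen after seeing the data, the correlation was 0.631, the shared calls were 240 higher and 97 lower, and 13 genes were lower with the hel-1 mutation and higher without it. A test of the difference itself called 10 genes with a more positive effect in the hel-1 background (0.0729%) and 103 with a more negative effect (0.751%). These counts depend on single libraries: without daf-2 replicate 1 they were 3277 and 3061, without hel-1 replicate 2, 1 and 6, and without double mutant replicate 2, 1 and 5. The remaining omissions gave 10 and 123 (daf-2 replicate 2), 3 and 61 (hel-1 replicate 1), 3 and 6 (double mutant replicate 1), 2 and 16 (N2 replicate 1) and 1 and 6 (N2 replicate 2).

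Of the named genes, 5 had a called difference in the main fit and in all 8 fits without 1 library. In F02E9.10 the effect was 1.99 with the hel-1 mutation and -0.17 without it (difference 2.16 ± 0.09, adjusted p = 1.71e-04): levels were 68.9 and 68.7 CPM in hel-1;daf-2, 17 and 17.6 CPM in hel-1, 62.5 and 58.5 CPM in daf-2 and 67.8 and 68.2 CPM in N2, so the hel-1 libraries alone were low. warf-1, described above, was the converse, with the hel-1 libraries alone high (-6.56 and -0.65, difference -5.91 ± 0.36, adjusted p = 0.00137). sqst-1, an autophagy receptor, had 30.2 and 30.9 CPM in hel-1;daf-2, 52.7 and 59.3 CPM in hel-1, 54.3 and 63.6 CPM in daf-2 and 24 and 24.7 CPM in N2. Each single mutant was thus about as high as the other and above both N2 and the double mutant, and the effects were -0.87 and 1.28 (difference -2.15 ± 0.14, adjusted p = 0.00137). nlp-20 fell by 2.39 with the hel-1 mutation and stood at 0.68 without it (difference -3.07 ± 0.22, adjusted p = 0.00244). F22B8.7 had effects of 0.57 and 4.43 (difference -3.87 ± 0.29, adjusted p = 0.00338), with 0.610 and 0.776 CPM in N2 where no other library was under 8.32 CPM. Without daf-2 replicate 2 the differences were 2.11 for F02E9.10, -5.96 for warf-1, -2.03 for sqst-1, -3.06 for nlp-20 and -3.66 for F22B8.7.

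The 3 delta-9 desaturases had differences of the same sign, of which 2 passed. fat-5 had 67.2 and 55.6 CPM in hel-1;daf-2, 95.8 and 124 CPM in hel-1, 86.5 and 89.8 CPM in daf-2 and 19.9 and 26.1 CPM in N2. Its effects were -0.84 with the hel-1 mutation and 1.94 without it (difference -2.78 ± 0.23, adjusted p = 0.00565, called in 7 of the 8 fits without 1 library). fat-6 had effects of -0.37 and 0.74 (difference -1.11 ± 0.18, adjusted p = 0.0406, called in 3 of the 8). fat-7 had effects of -5.22 and -2.50, and its difference of -2.73 ± 0.48 did not pass (adjusted p = 0.0558). Without daf-2 replicate 2 these differences were -2.75 for fat-5, -1.16 for fat-6 and -2.75 for fat-7 (adjusted p = 0.0125, 0.0374 and 0.0721). For the DAF-16 targets at the head of the response, differences did not pass: -1.18 ± 0.26 for sod-3 (effects 2.99 and 4.17, adjusted p = 0.0888), -2.93 ± 1.56 for mtl-1 (5.48 and 8.4, adjusted p = 0.232) and -1.80 ± 0.64 for dod-6 (4.40 and 6.21, adjusted p = 0.148). Without daf-2 replicate 2 they were -0.90, -2.19 and -1.22, and did not pass (adjusted p = 0.0702, 0.405 and 0.197). The list of DAF-16-activated genes had a median of 0.37 with the hel-1 mutation and 1.28 without it, 1.14 when daf-2 replicate 2 was left out, and 2 of its 45 members had a called difference, both more negative (6 called without that library).

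Collagens, molting genes, neuropeptide-like proteins and neuron markers, all with low medians in the hel-1 background, had positive medians without it, by an amount that depended on daf-2 replicate 2. Low medians stayed negative in DAF-16-repressed genes (-0.38 with the hel-1 mutation and -0.18 without it) and in ribosome assembly (-0.34 and -0.57). In that library, relative to daf-2 replicate 1, collagens (median log2 difference 1.01), neuropeptide-like proteins (0.88), neuron markers (0.73) and sperm genes (1.43) were high, and the part of this in the difference was not tested beyond leaving the library out. Collagens had a median of -0.53 with the hel-1 mutation and 1.4 without it, or 0.49 without daf-2 replicate 2. Neuropeptide-like proteins stood at -0.73 and 1.15 (0.24 without that library), neuron markers at -0.65 and 0.99 (0.24), and molting genes at -0.53 and 0.82 (0.67). Sperm genes stood at -1.35 and 0.08, with -0.96 without daf-2 replicate 2 and 0.68 without daf-2 replicate 1. The N2 libraries differed as well (median log2 difference of replicate 2 minus replicate 1, -1.66). The sign of sperm genes in the pair without hel-1 was thus not fixed by these libraries. Of these lists' members, 3 of the collagens, 3 of the neuropeptide-like proteins and 3 of the neuron markers had a called difference, all more negative in the hel-1 background (4 of each were called without daf-2 replicate 2). Among them were col-34 (-3.22 ± 0.38, and -2.90 without that library) and mec-17 (-2.95 ± 0.35, and -2.67), each called in 3 of the 8 fits without 1 library.

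**Figure D5:**
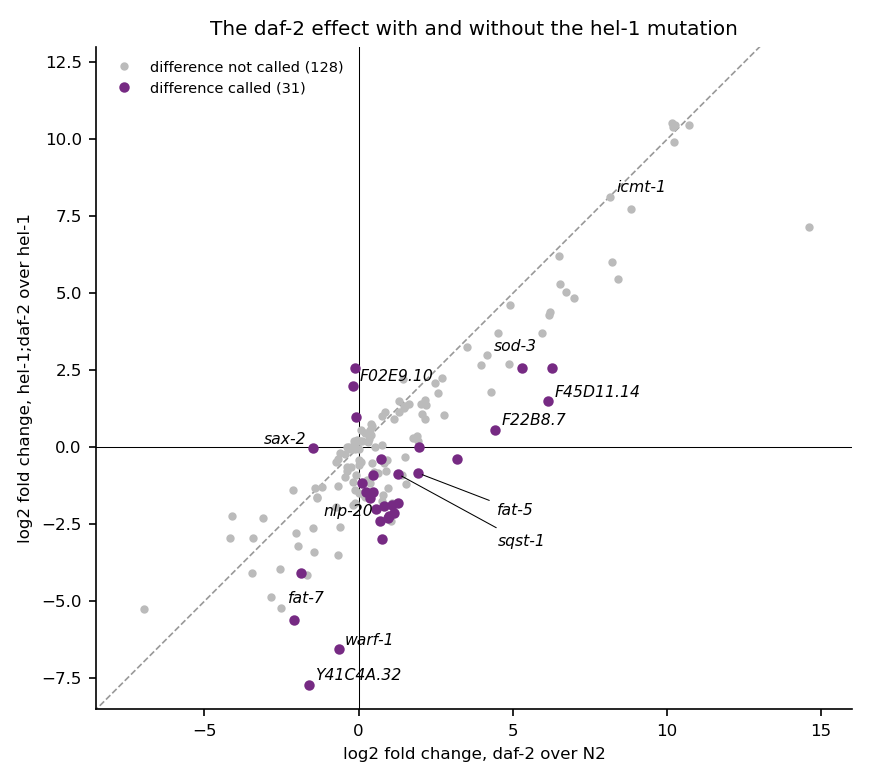
Log2 fold change of hel-1;daf-2 over hel-1 (vertical axis) against that of daf-2 over N2 (horizontal axis) for the 159 named genes, both from the fit of all 8 libraries, with the line of equal effects dashed. Purple points are the 31 genes whose difference between the 2 effects was called; warf-1, Y41C4A.32 and fat-5 lie far below the line, F02E9.10 above it and icmt-1 on it, and the point at the far right, H39E23.3, has no counts in N2, so its position depends on the prior count.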

How the data were processed

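The 8 files hold expected counts per gene that RSEM 1.3.1 estimated from the reads, and that the authors deposited with 1 file for each library. Beside it, the submitters' processing notes name cutadapt, FastQC, Bowtie, TopHat2, HTSeq and edgeR, and ce11 and WBcel235 as builds. The aligner behind the counts and the use of strand are not given in the sources used here. Per the labels' protocols, total RNA was taken from whole day 1 adults and sequenced on a HiSeq 2500.

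Expected counts were rounded to whole numbers, which changed between 2.03 and 2.79% of the values of a library. Of 46904 genes in the files, 46817 are in the WBcel235 annotation, 87 are not, and 42692 carry a symbol there. Symbols used by more than 1 gene are shown as gene identifiers. The 13024 genes that passed edgeR's filterByExpr in the 4 libraries hold at least 99.95% of their counts. hel-1;daf-2 was compared with hel-1 by the quasi-likelihood test of edgeR 4.0.16 (R 4.3.3, TMM scaling, Benjamini-Hochberg adjustment over all tested genes, threshold 0.05), on these 4 libraries, which leaves 2 residual degrees of freedom. The common biological coefficient of variation was 0.086. A second fit held all 8 libraries (13722 genes, 4 residual degrees of freedom, coefficient 0.168) and gave daf-2 over N2 and the difference of the 2 daf-2 effects. Levels are CPM on TMM-scaled library sizes: of the 4 libraries, or of all 8 wherever daf-2 or N2 stands beside them. Errors after ± are standard errors of log2 fold changes. P-values measure the spread between 2 biological repeats per genotype, and intervals and floors cover counting error only. Where a genotype had no counts, "at least" is computed against a floor of 3 counts per library. The steps were tested on simulated counts with known changes.

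The comparison and the 55 gene lists (2824 genes) were chosen with earlier results of these data known. Named were hel-1, daf-2 and daf-16, and the 12 called genes per direction with the largest change whose higher group averages 5 CPM or more and whose libraries do not overlap. Also named were the 5 best expressed called genes per direction, the fixed anchors and up to 4 called members per direction of each list, and the 8 largest called differences per direction at 5 CPM or more. Not every gene so chosen is described. The labels do not state that same-numbered libraries share a culture, so the main fit did not pair them. Across genes, the deviations of same-numbered hel-1;daf-2 and hel-1 libraries correlated at 0.005. With so few libraries this cannot exclude pairing.

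The alternatives were DESeq2 1.42.0, RLE scaling, no filter, a filter at 5 CPM in 2 libraries, all 8 libraries, a replicate block and leaving out each library in turn; a lone remaining library is then assumed to vary like the other genotype. Of the named genes, gst-4, rict-1, hsp-12.6, clec-190, slc-17.4, acdh-2, F21C10.11 and clec-85 overlap another gene of the same strand by 20 or more exon bases, and 24 others, warf-1, lsy-27, sod-3 and fat-5 among them, overlap one of the other strand. Their counts cannot be split here. Promoter motifs were not analysed here.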

Additional observations from a re-analysis of the deposited data

Results flagged for a closer look

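For each gene below, the daf-2 effect with the hel-1 mutation (hel-1;daf-2 over hel-1) differed from that without it (daf-2 over N2) at an adjusted p under 0.05 in edgeR's test of the difference itself over all 8 libraries. Values are the first effect minus the second, on the log2 scale. Without daf-2 replicate 2, which stood apart from daf-2 replicate 1, all 31 kept their direction and 26 their call. The 5 that lost it were Y41C4A.32 (adjusted p = 0.0628), B0205.13 (0.105), flp-15 (0.0556), cebp-1 (0.0508) and F13H8.8 (0.0582). Over the 8 fits that each left out 1 library, 5 of the 31 were called in all 8, 1 in 7, 3 in 4, 8 in 3, 10 in 2 and 4 in only 1.

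The difference was negative where the level was high in hel-1 and low in the other genotypes: -6.12 for Y41C4A.32, -5.91 for warf-1 and -3.52 for B0205.13. Of these, warf-1 was called in all 8 fits without 1 library, Y41C4A.32 in 4 and B0205.13 in 1. Among genes of metabolism and stress, it was -2.78 for fat-5 and -1.11 for fat-6, both desaturases, -3.28 for cdr-4, -2.02 for ugt-19, a glucuronosyltransferase, and -2.15 for sqst-1. The first effect was negative and the second positive in fat-5, fat-6, cdr-4, ugt-19 and sqst-1. By edgeR's test, the first effect of fat-6 (-0.37, adjusted p = 0.135) and the second of ugt-19 (0.38, adjusted p = 0.207) did not pass. cdr-4 had 7.30 and 10.5 CPM in hel-1;daf-2, 37.2 and 40 CPM in hel-1, 7.88 and 15.5 CPM in daf-2 and 4.56 and 5.93 CPM in N2.

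Among genes of defence and digestion, the difference was -2.21 for clec-47, -2.74 for clec-52, -1.69 for irg-7 and -3.09 for asp-8, an aspartyl protease. clec-52 was higher under both comparisons, by 2.57 with the hel-1 mutation and 5.31 without it. Among genes of the cuticle it was -3.22 for col-34 and -1.94 for fbn-1. Among genes of neurons and their peptides it was -3.26 for flp-15, -2.57 for nlp-12, -3.07 for nlp-20, -3.75 for nlp-43, -2.95 for mec-17, -2.76 for mec-7 and -1.95 for unc-13. Of these, nlp-20 was called in all 8 fits without 1 library, and flp-15 in 1. It was also -1.29 for the F-box gene fbxa-192 and -1.37 for cebp-1, a bZIP transcription factor of axon regeneration.

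Some genes rose strongly in daf-2 over N2 and had a weaker or uncalled effect in hel-1;daf-2 over hel-1. They were F45D11.14 (-4.65), F22B8.7 (-3.87), F21C10.11 (-3.70) and catp-3, a P-type ATPase (-3.56). With all 8 libraries, the effect with the hel-1 mutation was not called in F22B8.7 (0.57, adjusted p = 0.124) or catp-3 (-0.38, adjusted p = 0.464). F45D11.14 had 47.9 and 34.2 CPM in hel-1;daf-2, 13.2 and 15.9 CPM in hel-1, 169 and 364 CPM in daf-2 and 4.19 and 3.32 CPM in N2. Positive differences were 2.70 for F13H8.8, 2.16 for F02E9.10, 1.46 for sax-2, a Furry homologue of neurite growth, and 1.07 for C27C7.1. In sax-2 the daf-2 libraries stood alone: it had 177 and 157 CPM in hel-1;daf-2, 176 and 166 CPM in hel-1, 64.9 and 58 CPM in daf-2 and 159 and 185 CPM in N2. In F13H8.8 the double mutant did, with 7.24 and 11.3 CPM in hel-1;daf-2, 1.72 and 1.37 CPM in hel-1, 1.2 and 1.4 CPM in daf-2 and 1.69 and 1.15 CPM in N2.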

How the results depend on the processing

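Only 2 libraries per genotype leave the number of called genes poorly fixed, and low counts limit the weakly expressed genes. The 1410 genes higher became 909 with DESeq2, 406 with all 8 libraries and 746 with the filter at 5 CPM, and the 1499 lower became 364 with all 8 libraries and 917 with that filter. Beyond 2-fold, the 265 higher became 171 with all 8 libraries and 90 with the filter, and the 861 lower became 533 with DESeq2, 252 with all 8 libraries and 217 with the filter. The filter at 5 CPM tests fewer genes; the cause of the other changes was not tested. Leaving out 1 library gave 212 to 1579 higher and 300 to 1646 lower genes, and 121 to 335 higher and 237 to 750 lower beyond 2-fold. The 10 more positive differences became 41 with DESeq2, and the 103 more negative ones 578 with DESeq2 and 68 with the filter; leaving out 1 library gave 1 to 3277 and 5 to 3061. No value that passed the test in either fit changed sign. Sign changes were seen in 24 cases among 12 named fold changes that did not pass (0.23 or less in size as reported) and in 27 cases among 17 list medians (0.30 or less), as in mitochondrial chromosome genes (0.24, and -0.06 without double mutant replicate 2), lysozymes (-0.08, and 0.70 with the filter) and C-type lectins (-0.20, and 0.17 with the filter). Over the alternatives, named fold changes kept their side of the threshold in 1460 cases, lost it in 100 and gained it in 7, and named differences kept it in 220 and lost it in the rest. List medians moved by less than the spread between libraries in 475 cases and by more in 74, the second mostly in lists with medians near 0. One list had no tested member under the filter at 5 CPM.

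Samples of 2 genotypes share only a replicate number. With the number as a block, 1352 genes were higher and 1403 lower, 267 and 778 beyond 2-fold, and the differences numbered 11 and 101. Under the block rpl-7 (adjusted p = 0.0501) and hsp-16.41 (0.0602) lost their calls, as did the differences of fat-6 (0.0619), flp-15 (0.0683), cebp-1 (0.0663) and F13H8.8 (0.0623). The rpl-7 call was also lost with all 8 libraries (adjusted p = 0.345) and without either double mutant library.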

Other observations

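F-box genes, whose products select proteins for degradation, were called higher more often than lower. Of 128 tested members 22 were higher (17.2%, beside 10.8% of all tested genes) and 9 lower (7.03%, under the 11.5% of all) in hel-1;daf-2 than in hel-1, with a median log2 fold change of 0.05 beside 0.00 over all genes; without double mutant replicate 1 these were 6 and 3, and without replicate 2, 6 and 2. fbxa-125 had 2.68 and 2.43 CPM in hel-1;daf-2, against 0.106 and 0.0932 CPM in hel-1 (log2 fold change 4.62 ± 0.32, adjusted p = 0.00187). fbxa-72 had 7.84 and 8.36 CPM in hel-1;daf-2, against 18.1 and 20.2 CPM in hel-1 (-1.24 ± 0.10, adjusted p = 0.00285). Of 166 nuclear hormone receptor genes, 3 were higher (1.81%) and 17 lower (10.2%, under the 11.5% of all tested genes). Their median was -0.25, and between -0.34 and -0.11 over the fits without 1 library. Weakly expressed genes in general had similar medians, -0.32 under 1 CPM and -0.20 at 1 to 5 CPM. nhr-62, a receptor linked in worms to diet restriction, had 7.99 and 6.24 CPM in hel-1;daf-2, against 2.2 and 2.67 CPM in hel-1 (1.55 ± 0.20, adjusted p = 0.00869).

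Of 56 tested amino acid and peptide transporters, 4 were higher (7.14%) and 7 lower (12.5%), near the 10.8% and 11.5% of all tested genes. Their median was -0.06, and between -0.07 and 0.02 over the fits without 1 library. aat-1, an amino acid transporter subunit, had 10.5 and 10.8 CPM in hel-1;daf-2, against 3.69 and 4.38 CPM in hel-1 (1.4 ± 0.14, adjusted p = 0.00428). slc-17.4 had 4.46 and 4.48 CPM in hel-1;daf-2, against 11.9 and 10.3 CPM in hel-1 (-1.32 ± 0.13, adjusted p = 0.00445). his-24, a linker histone gene, had 19.7 and 19.5 CPM in hel-1;daf-2, against 33.1 and 34.2 CPM in hel-1 (-0.78 ± 0.06, adjusted p = 0.00276).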
